A study of Homo sapiens with 6 samples.

Results

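L2 elements, also called LINE-2, are old long interspersed elements. Loci were taken as L2 when the repeat name in the identifier, without its copy number and running number, was L2, L2a, L2b, L2c or L2d. This gave 49028 of the 433837 listed loci (11.3%), of which 6713 were named L2, 17107 L2a, 10818 L2b, 14390 L2c and 0 L2d. The 293 loci under 3 other names that begin with L2 were not included. The 6 RNA libraries were made from HEK293T cells, which derive from human embryonic kidney, after ribosomal RNA was depleted. All cells received a chemically modified chimeric antisense oligonucleotide (ASO) at 100 nM by lipid transfection. In 3 libraries the ASO targeted U7 small nuclear RNA (genotype label: U7 snRNA knockdown), and in the other 3 it was the control ASO, directed against GFP (genotype label: WT). All libraries came from 1 cell line, and no time after transfection was used here. The series design names 3 biological replicates for each group. Where nothing says that these came from separate cultures, p-values measure only the spread between these libraries.

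L2 elements copied themselves through RNA in early mammals and can no longer move in human cells. What remains are short, diverged fragments scattered through introns, gene flanks and intergenic DNA. Most RNA from such fragments is part of longer transcripts that cross them. MIR, a short interspersed element without proteins of its own, shares its tail with L2 and is thought to have moved with L2's enzymes. U7 RNA is the guide RNA of the particle that cuts the ends of replication-dependent histone transcripts, and the series title concerns a role of it in repressing LTR12 elements, the long terminal repeats of HERV9 endogenous retroviruses. Sequences, positions and lengths of single L2 loci were not used here, and no level per length is compared between loci or names. Where loci are ordered by CPM, the order is one of read number, which also depends on length.

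The 6 libraries held between 1926892 and 2819540 reads counted in repeat loci, of which between 133459 and 184513 fell in L2 loci. The 16 listed loci named U7 held between 4 and 12 reads a library, too few to check the knockdown, and the tables hold no gene rows with which to check the cell line. Fewer transfected cells and less RNA per cell cannot be told apart in such bulk libraries. The share of reads in L2 was 6.69%, 6.93% and 7.77% with the control ASO and 6.92%, 6.87% and 6.54% with the U7 ASO (exact 95% intervals, counting error only, from 6.65% to 7.81% and from 6.52% to 6.95%). As plain shares the 2 groups overlapped.

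At the level of repeat names, no L2 name passed the test for a change after the U7 ASO. Summed reads of all L2 loci were 72545, 71624 and 74235 CPM (counts scaled to library size, with TMM, edgeR's factor for library composition) in the controls and 67974, 66332 and 65646 CPM with the U7 ASO. The means were 72801 ± 1325 and 66651 ± 1196 CPM (SD, n = 3 each), a log2 ratio of −0.13, and on this scale every U7 ASO library lay below every control library. L2c had the largest difference in fold, 19676 ± 713 CPM against 17503 ± 266, and did not pass edgeR's quasi-likelihood test (log2 fold change −0.17, SE 0.11, adjusted p = 0.534). L2a stood at 26819 ± 802 CPM against 24723 ± 752, a log2 fold change of −0.12 (SE 0.11) with an adjusted p of 0.713. L2b stood at 15469 ± 463 CPM against 14409 ± 453 and L2 at 10837 ± 294 CPM against 10015 ± 200. Their log2 fold changes were −0.10 and −0.11, with adjusted p-values of 0.761 and 0.751. In all 4 names the U7 ASO libraries lay below the controls, as they did for 10.2% of the 2236 names tested, and at 9.93% of names they lay above. Of all names tested 2.55% changed at an adjusted p under 0.05, with 1.52% raised and 1.03% lowered. As plain shares of counted reads the groups overlapped in all 4 names, so the separation depends on the scaling.

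**Figure D1:**
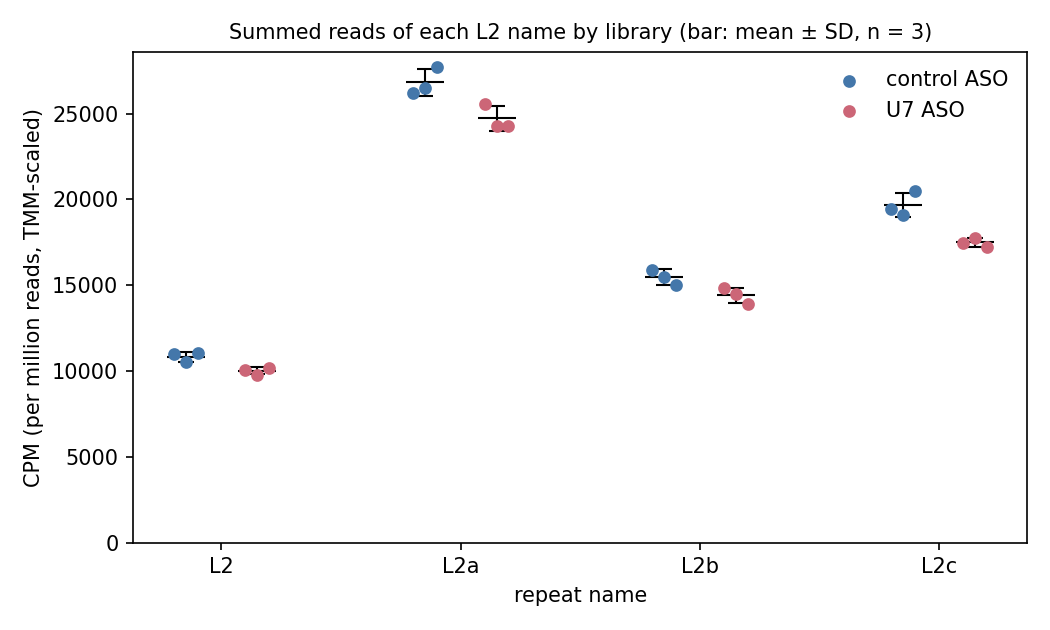
Summed reads of each L2 name in each library, in CPM after TMM scaling (vertical axis), with control ASO libraries in blue, U7 ASO libraries in red and black bars for mean ± SD (n = 3). In each of the 4 names the red points lie slightly below the blue ones, from 19676 to 17503 CPM on average in L2c, and none of these differences passed the test.

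Reads were found at many L2 loci, most of them seldom. Of the 49028 loci, 2230 had a read in all 6 libraries and 27067 in 1 library only. The control libraries detected between 13254 and 16157 L2 loci each, and U7 ASO replicates 1, 2 and 3 detected 15390, 19235 and 18660. At equal depth, 1926892 counted reads each, the expected numbers were 13189, 16157 and 14937 in the controls and 15268, 18833 and 17870 with the U7 ASO. More loci of other repeats were detected too, and the L2 part of all detected loci, at that depth, was 13.4% to 13.7% in control libraries and 11.9% to 13.0% in U7 ASO libraries. The 10 most read L2 loci accounted for 6.27% to 7.18% of L2 reads in the controls and for 7.19%, 4.72% and 4.39% in U7 ASO replicates 1, 2 and 3, so replicate 1 resembled the controls in this measure.

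Single L2 loci changed in both directions. The count filter (at least 10 reads in a library of median size, in 3 libraries) left 2458 L2 loci for testing, 5.01% of those listed, which held between 42.2% and 52.8% of a library's L2 reads. Of these, 50 were raised and 19 lowered at an adjusted p under 0.05, and 2389 did not pass. The raised loci were 2.03% of those tested, against 4.49% of all 14380 loci tested and 2.28% of the 13917 outside LTR12 and HERV9. The lowered loci were 0.773%, against 0.473% of all loci tested. In both directions, 4.96% of all loci tested changed. Neither L2 share was tested against the other loci. The counts depended on single libraries and on the tool, with 19 L2 loci raised without U7 ASO replicate 1, 21 without replicate 3 and 23 by limma-voom, against 68 by DESeq2. Between 4 and 8 were lowered when any 1 library was left out, against 39 by DESeq2. All 69 called loci had groups that did not overlap. Among tested L2 loci the groups did not overlap with the U7 ASO higher at 7.04% and with the U7 ASO lower at 10.5%, where all tested loci gave 12.2% and 8.36%. The median log2 fold change of the tested L2 loci was −0.072, and that of all tested loci was 0.063.

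**Figure D2:**
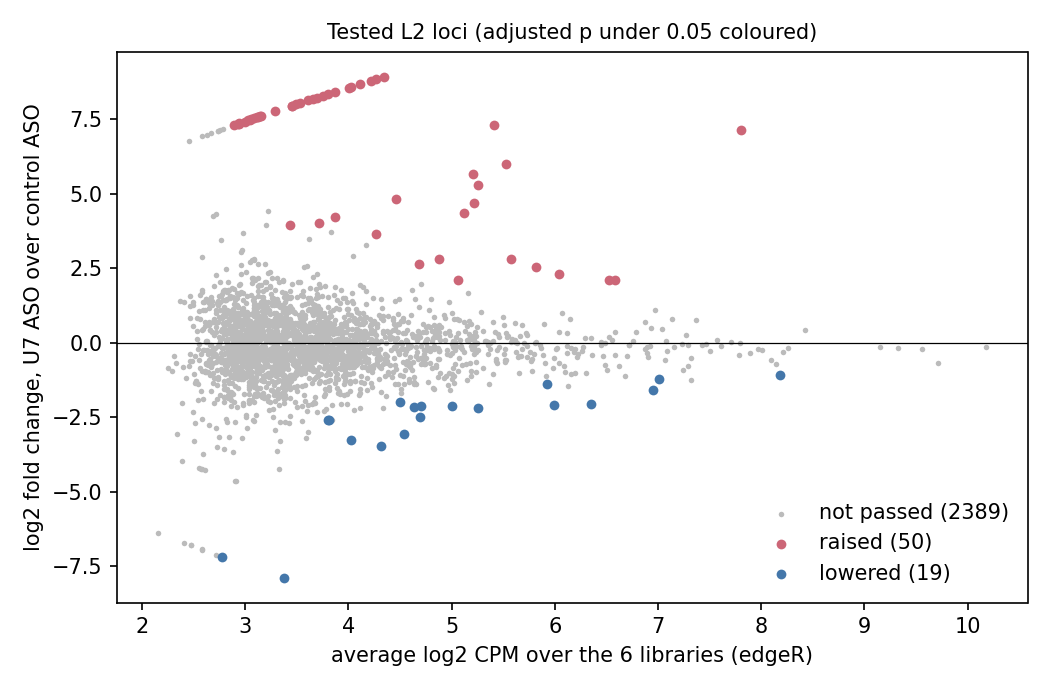
Log2 fold change (vertical axis, U7 ASO over control ASO) against average log2 CPM (horizontal axis) for the 2458 tested L2 loci, with 50 raised loci in red, 19 lowered in blue and 2389 not passed in grey. The line of red points at the upper left holds loci with 0 control reads, whose fitted fold change depends on a prior count and is not a measured fold.

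The called loci held a small part of the L2 reads. The 50 raised loci together held 291, 200 and 274 reads with the control ASO and 4049, 3009 and 4930 with the U7 ASO, which is 0.215%, 0.150% and 0.178% of L2 reads in the controls and 2.80%, 1.86% and 2.67% with the U7 ASO. The 19 lowered loci held 1.78%, 1.54% and 1.64% of L2 reads in the controls and 0.593%, 0.488% and 0.427% with the U7 ASO. Without all 69 of them the summed L2 reads were 71465 ± 1277 and 64683 ± 1030 CPM, a log2 ratio of −0.14. The 46570 L2 loci that the filter removed summed to 35861 ± 1929 CPM in the controls and 36520 ± 2226 CPM with the U7 ASO, a difference smaller than the spread between libraries.

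Most of the raised loci had no control reads at all. In 30 of the 50 the control libraries held 0 reads. So they did in 382 of the 645 raised loci of all repeats, and in 193 of the 317 outside LTR12 and HERV9. The 30 L2 loci had between 62 and 193 reads over the 3 U7 ASO libraries. Against a floor of 3 reads over the control group they were at least 18.9-fold to 59.0-fold higher. Most counts were even, and if both mates of a pair were counted, a floor set in fragments would make these and all later bounds smaller and counting intervals wider. Such a locus could reach the test only through the U7 ASO side, where every library had to meet the minimum, so it had to differ. Of the 38 that reached it, 8 did not pass. Among the 1634 tested L2 loci with a read in every library, 10 were raised and 15 lowered (median log2 fold change −0.11), against 84 raised and 51 lowered among 10057 such loci of all repeats (median −0.017).

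The 10 loci with the largest fitted rise all came from the silent set. L2b_dup93_1855587 held 0 reads in each control and 41, 76 and 76 with the U7 ASO, at least 59.0-fold higher. L2a_dup523_4930496 held 0 control reads and 37, 66 and 80 reads, at least 55.9-fold higher. L2b_dup1007_1918796 held 93, 40 and 38 reads after 0 in the controls, with replicate 1 far above the others. The other 7 were L2c_dup3396_3574887, L2a_dup9458_2138279, L2b_dup2471_3108524, L2_dup2148_3107881, L2a_dup3737_103783, L2b_dup96_1855594 and L2a_dup521_1867421, at least 36.1-fold to 49.5-fold higher. Since all 10 reached the test through the U7 ASO side alone, their p-values are not given as support. Of their calls, 5 were lost without U7 ASO replicate 1 or 3 or both, and adjusted p-values reached 0.0522 for L2b_dup1007_1918796, 0.0518 for L2a_dup3737_103783, 0.0574 for L2_dup2148_3107881, 0.0557 for L2a_dup9458_2138279 and 0.125 for L2a_dup521_1867421 over the alternatives.

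The raised loci that already had reads in every control library show sizes that do not rest on a zero. There were 10 of them, and they were singled out after their values were seen. In L2a_dup1357_1897770, L2b_dup31_4439965, L2_dup3091_3171625, L2_dup812_4697164 and L2a_dup2420_2770073 at least 1 control library fell short of the count minimum. These loci could reach the test only with the U7 ASO side, so their p-values are not given as support. L2a_dup1357_1897770 held 2, 10 and 2 reads in the controls and 764, 507 and 957 with the U7 ASO (log2 fold change 7.13, SE 0.54). It alone held 18.6% of all U7 ASO reads in raised L2 loci. Its call held in every alternative, which for the same reason is not given as support. L2a_dup784_4144325 held 56, 48 and 54 control reads and 239, 183 and 323 U7 ASO reads (log2 fold change 2.10, SE 0.33, adjusted p = 0.000986). L2b_dup32_4439967 held 78, 45 and 40 reads and then 232, 231 and 310 (log2 fold change 2.11, SE 0.35). Its neighbour L2b_dup31_4439965, 2 running numbers away, held 29, 6 and 21 reads and then 108, 79 and 73, but its call was lost in 8 of 16 alternatives, 5 of them with 1 library left out (adjusted p up to 0.423). L2a_dup298_4922093 rose from 20, 33 and 47 reads with the control ASO to 149, 124 and 276 (log2 fold change 2.31), and its call was lost without U7 ASO replicate 3 (adjusted p = 0.0518). The remaining 5 were L2c_dup1351_5293587, L2c_dup1352_5293588, L2_dup3091_3171625, L2_dup812_4697164 and L2a_dup2420_2770073, with log2 fold changes from 2.56 to 3.65. Of the 5, L2c_dup1352_5293588 kept its call in every alternative. The other 4 calls were lost without U7 ASO replicate 1 and without replicate 3, and all but that of L2c_dup1351_5293587 also without control replicate 2, with adjusted p-values up to 0.212.

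In the other 10 raised loci some control libraries were at 0, so each could reach the test only with the U7 ASO side. Group separation and stable calls among them are therefore not given as support. L2a_dup1412_1899441 held 0, 2 and 0 control reads and 146, 108 and 158 U7 ASO reads, a ratio of 189 with an exact 95% interval from 52.0 to 1565 for counting error. L2a_dup3656_4421623 held 0, 0 and 6 control reads and 186, 132 and 120 reads with the U7 ASO (log2 fold change 6.01, SE 0.78). L2a_dup4264_3574899 held 6, 0 and 0 control reads and 154, 70 and 128 reads. In each of these 3 the lowest U7 ASO library was above the highest control by a wide margin, and their calls held in every alternative. The remaining calls were each lost in at least 1 alternative. That of L2a_dup1336_1897266 was lost in 11 of 15 (adjusted p up to 0.423), L2a_dup3653_4421614 in 8 of 15 (up to 0.516) and L2a_dup524_4930497 in 6 of 15 (up to 0.421). L2a_dup1342_1897468 lost its call in 3 of 16, and L2a_dup10096_260843, L2b_dup1639_5301896 and L2c_dup1350_5293585 in 1 of 16 each.

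The lowered loci were mostly transcribed in both groups. Of the 19, 15 kept reads in every U7 ASO library, as did 51 of the 68 lowered loci of all repeats. By name, 10 of the 19 were L2c. L2c_dup265_3467367 held 194, 157 and 251 reads in the controls and 42, 60 and 54 with the U7 ASO (log2 fold change −2.06, SE 0.34, adjusted p = 0.00143). L2c_dup268_3467371, 4 running numbers away, held 291, 277 and 282 reads and then 65, 119 and 124 (log2 fold change −1.60, SE 0.32, adjusted p = 0.00577). L2_dup1357_4765679 held 168, 151 and 145 reads and then 43, 38 and 38 (log2 fold change −2.08, SE 0.34, adjusted p = 0.00154). These 3 were the only lowered L2 loci whose calls held in every alternative run. L2_dup1357_4765679 varied little within either group, whereas L2c_dup265_3467367 varied more among the controls and L2c_dup268_3467371 more among the U7 ASO libraries.

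The 10 lowered loci with the largest fitted falls had fewer reads. Of these only L2a_dup7253_3888044 met the count minimum in every U7 ASO library. The others could reach the test only with the control side, so their p-values are not given as support. L2c_dup163_2927339 held 15, 30 and 40 control reads and 0 in each U7 ASO library, at least 30.9-fold lower against a floor of 3 reads over the group. L2a_dup298_11243 held 26, 14 and 12 control reads and 0 in each U7 ASO library, at least 18.9-fold lower, but 11 of 15 alternatives ended its call. L2c_dup5394_2876589 fell from 49, 49 and 85 reads to 6, 4 and 14 (log2 fold change −3.05, SE 0.60). L2a_dup2436_4701937, L2_dup4314_354143, L2c_dup1999_4695798 and L2b_dup3766_127595 had log2 fold changes of −3.46, −3.28, −2.61 and −2.60. L2a_dup7254_3888046, L2a_dup7253_3888044 and L2c_dup14301_400525 had −2.49, −2.21 and −2.17. Each of these 10 calls was lost in 4 or more alternatives, and each when at least 1 of the libraries was left out. Adjusted p-values over the alternatives reached from 0.0564 for L2c_dup163_2927339 to 0.423 for L2b_dup3766_127595.

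**Figure D3:**
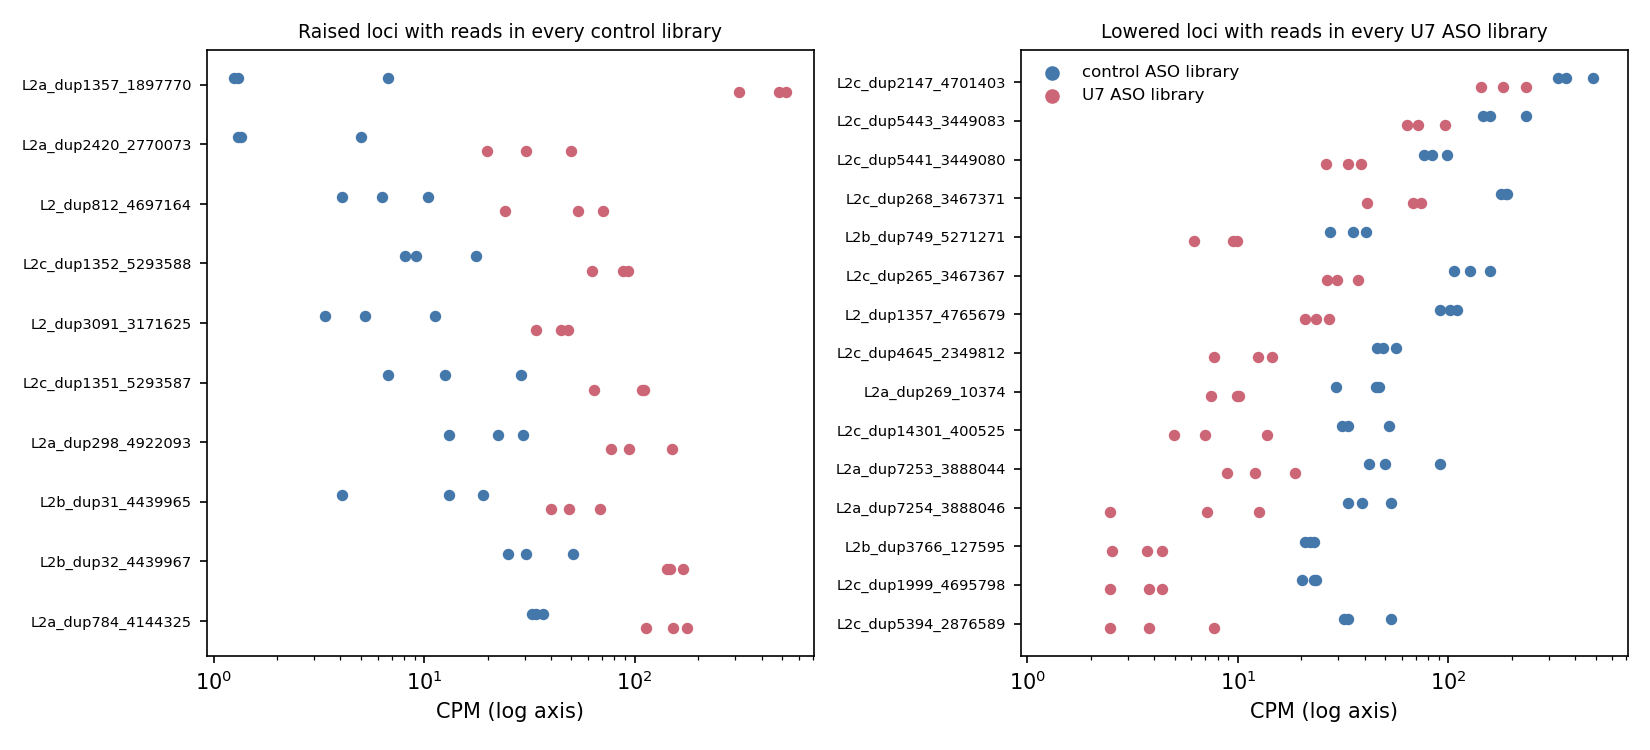
CPM on a log axis (horizontal) in each of the 6 libraries for the 10 raised L2 loci with reads in every control library (left) and the 15 lowered L2 loci with reads in every U7 ASO library (right), with control ASO libraries in blue and U7 ASO libraries in red. No locus shows overlap between the groups, and L2a_dup1357_1897770 at the top left has the widest gap.

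Among the 10 L2 loci with the highest mean CPM, 1 passed the test. L2b_dup2380_574801, first in mean CPM, held 1815, 1934 and 1869 reads in the controls and 2348, 1504 and 1581 with the U7 ASO, where the groups overlapped (log2 fold change −0.16, adjusted p = 0.934). L2a_dup1613_1906439 held 1532, 1528 and 1668 reads and then 1409, 864 and 938, with all U7 ASO values lower in CPM (log2 fold change −0.67, adjusted p = 0.284), and it was called by limma-voom (adjusted p = 0.0336) and without a count filter (adjusted p = 0.00102). Of these 10 loci, L2c_dup2147_4701403 was the only one to pass, with 747, 490 and 575 control reads and 368, 293 and 261 U7 ASO reads (log2 fold change −1.08, SE 0.29, adjusted p = 0.0444). That call was lost in 8 of 16 alternatives, among them leaving out any 1 library (adjusted p up to 0.315). L2b_dup3646_4609569 lay higher in every U7 ASO library (457, 462 and 430 reads against 637, 659 and 665) without passing (log2 fold change 0.42, adjusted p = 0.617). L2a_dup7160_2397196, L2a_dup49_3458126, L2c_dup2222_1650538, L2a_dup3828_3559323 and L2a_dup1015_4472829 overlapped between groups, with log2 fold changes from −0.30 to −0.13. L2c_dup5442_3449082 had a log2 fold change of −0.71 and did not pass with edgeR (adjusted p = 0.192), but was called by DESeq2 (adjusted p = 0.0451). It lies between 2 lowered L2c loci, described below.

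Raised L2 loci stood together with other raised repeats. The identifiers end in a running number, and within a name the copy number rises with it in 99.8% of consecutive pairs, so nearby running numbers were taken as neighbours in the repeat annotation. Reads of 1 transcript can fall in several neighbouring loci, so these are not independent measurements. Of the 50 raised L2 loci, 36 had another raised locus within 20 running numbers and 0 had a lowered one. In 30 of them (60.0%) a raised neighbour belonged to a repeat other than L2, against 16 of the 2389 L2 loci that did not pass (0.670%). The reads of all other listed loci in the window were higher in every U7 ASO library around 44 of the 50 raised loci, and around 257 (10.8%) of those not passed. The median log2 ratio of these window reads was 3.34 around raised loci and 0.12 around loci not passed. Across the 2423 tested L2 loci with at least 20 reads in the window, the log2 ratios of the locus and of its window had a Spearman rho of 0.300, a description over loci that share the same 6 libraries.

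LTR12 and HERV9 elements were among these neighbours. A raised LTR12 or HERV9 locus lay within 20 running numbers of 18 of the 50 raised L2 loci, 0 of the 19 lowered and 9 of the 2389 not passed. Within 500 running numbers the counts were 26, 0 and 162. At L2a_dup9458_2138279 the neighbouring number is LTR12C_dup245_2138280, and the L2 locus held 46, 18 and 90 reads after 0 in the controls. L2c_dup3396_3574887 directly follows LTR12C_dup62_3574886 and held 59, 36 and 67 reads after 0 in the controls. It formed a run of 3 raised L2 loci with L2c_dup3398_3574897 and L2a_dup4264_3574899, beside LTR12C_dup60_3574882 and the internal parts HERV9NC-int_dup6_3574883 and HERV9NC-int_dup7_3574884, all raised. L2c_dup1350_5293585, L2c_dup1351_5293587 and L2c_dup1352_5293588 form another run after LTR12C_dup11_5293584. In that run the locus nearest to the LTR12C copy had 0, 4 and 8 control reads and 110, 111 and 128 U7 ASO reads, and the 2 next had 44, 10 and 20 control reads against 172, 103 and 203, and 14, 12 and 28 against 147, 101 and 161. L2b_dup1007_1918796 lay 2 running numbers from LTR12C_dup126_1918798 in a window with 28, 12 and 26 control reads and 2185, 1612 and 2149 U7 ASO reads.

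The other 32 raised L2 loci had no raised LTR12 or HERV9 locus in that window, and 24 had none within 500 running numbers. In 26 of the 32 the window reads were still higher in every U7 ASO library, and 12 had a raised neighbour of another repeat. L2b_dup93_1855587, L2b_dup94_1855588 and L2b_dup96_1855594 formed a run of 3 with raised L1MB3 and GA-rich loci nearby, and the nearest raised LTR12 or HERV9 locus was 21 to 28 running numbers away, just outside the window. L2a_dup1412_1899441 lay near LTR48B_dup9_1899421, and the window held 232, 160 and 205 control reads and 2270, 1181 and 1294 U7 ASO reads. L2a_dup1336_1897266, L2a_dup1342_1897468 and L2a_dup1357_1897770 lay in 1 stretch of running numbers, farther apart than the window. Each had at least 1 raised neighbour of another repeat, among them LTR7_dup22_1897272. The log2 ratios of their window reads were 3.77, 6.37 and 1.81, in that order. Around L2a_dup1357_1897770 the window held 34, 26 and 14 control reads and 76, 77 and 144 U7 ASO reads. For 14 raised loci no other called locus lay within 20 running numbers. Of these, L2a_dup784_4144325 had a window with 5, 23 and 8 reads and then 83, 59 and 46, whereas L2_dup2593_2369791, with 20, 19 and 38 U7 ASO reads of its own, had a window of 0, 4 and 8 reads and then 0, 13 and 1.

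Fewer called neighbours were available to the lowered loci, since 0.473% of all tested loci were lowered and 4.49% raised. Of the 19, 7 had another lowered locus within 20 running numbers, 0 had a raised one, and 12 had no called neighbour. Window reads were lower in every U7 ASO library around 12 of the 19, against 166 (6.95%) of the 2389 loci not passed, with a median log2 ratio of −0.95. Pairs of lowered L2 loci stood side by side at 3 places. Around L2c_dup265_3467367, of the first pair, the window held 605, 613 and 720 control reads and 315, 388 and 353 U7 ASO reads. That window includes the other locus of the pair, L2c_dup268_3467371, which held 291, 277 and 282 control reads and 65, 119 and 124 U7 ASO reads. The pair L2c_dup5441_3449080 and L2c_dup5443_3449083 flanks L2c_dup5442_3449082, which itself did not pass with edgeR. L2c_dup5441_3449080 held 151, 124 and 122 control reads and 61, 54 and 48 U7 ASO reads, L2c_dup5442_3449082 held 486, 572 and 555 and then 336, 384 and 349, and L2c_dup5443_3449083 held 223, 232 and 372 and then 152, 116 and 116. The third pair was L2a_dup7253_3888044 and L2a_dup7254_3888046, with a lowered DNA transposon copy, Charlie4z_dup220_3888050, in the window.

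**Figure D4:**
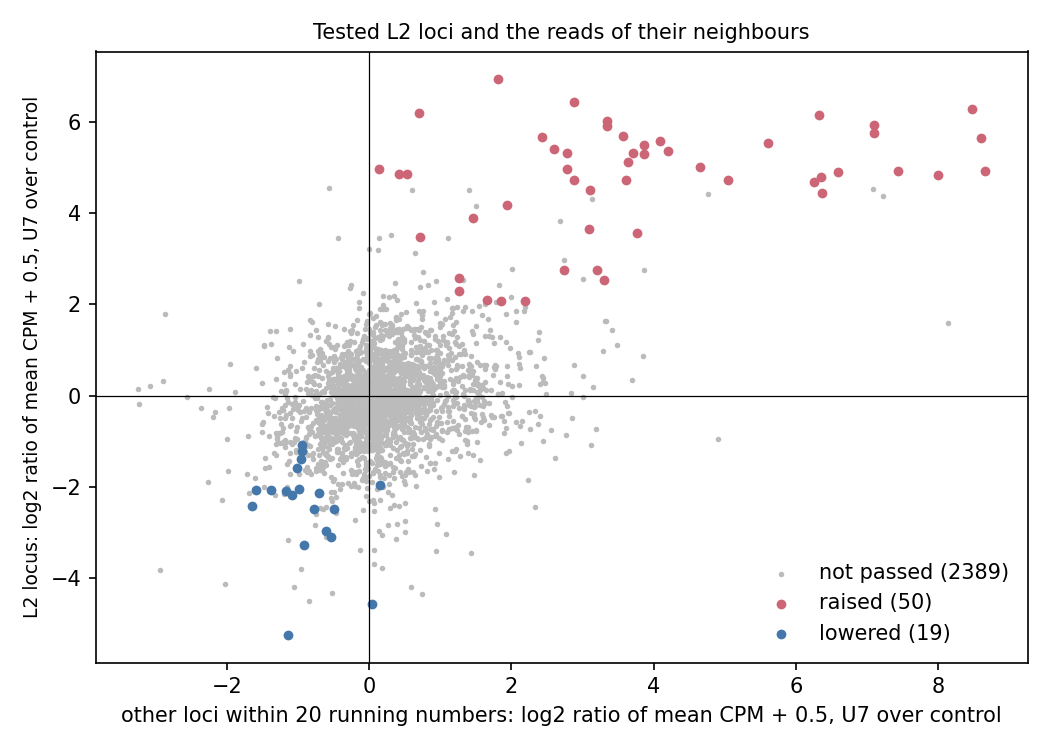
Log2 ratio of mean CPM + 0.5 of each tested L2 locus (vertical axis, U7 ASO over control ASO) against the same ratio for the summed reads of all other listed loci within 20 running numbers (horizontal axis), with raised loci in red (50), lowered in blue (19) and not passed in grey (2389). Most raised loci lie to the right of 0, with a median window ratio of 3.34, and most lowered loci lie to the left, with a median of −0.95.

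The 4 names differed in their balance of raised and lowered loci, which was not tested. L2a had 26 raised and 5 lowered loci among 950 tested (median log2 fold change −0.051), and L2b had 12 raised and 2 lowered among 479 (−0.073). L2 had 5 raised and 2 lowered among 387 (−0.044). L2c had 7 raised and 10 lowered among 642 (−0.13) and was the only one of the 4 with more lowered than raised loci. The 10 include the neighbours L2c_dup265_3467367 and L2c_dup268_3467371, and L2c_dup5441_3449080 and L2c_dup5443_3449083, which are not independent. Only the calls of L2c_dup265_3467367 and L2c_dup268_3467371 held in every alternative. Of the related families, MIR had 14 raised and 4 lowered among 1112 tested loci (median 0.044), L3, another old long interspersed element, had 5 raised and 0 lowered among 179 (median 0.0091), and older L1 elements of the L1M names had 24 raised and 2 lowered among 1223 (median 0.13). The median of L2 was the lowest of these 4 families, and the share lowered, 0.773%, was the highest, against 0.360% for MIR and 0.164% for older L1. By name, the share lowered was 1.56% in L2c. It was 0.517% in L2, 0.526% in L2a and 0.418% in L2b, near the 0.473% of all tested loci. Whether the families differ was not tested.

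**Figure D5:**
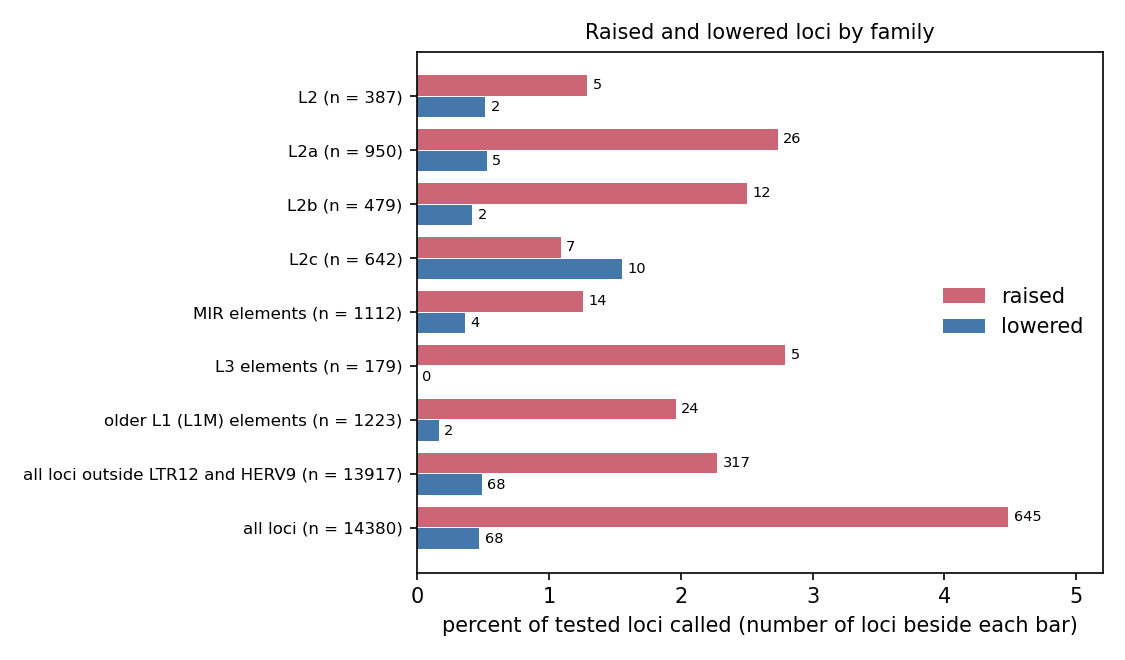
Percent of tested loci called raised (red) or lowered (blue) for the 4 L2 names, related families and all loci, with the number of called loci beside each bar and the number tested in the axis label. L2c shows a longer blue than red bar (10 against 7 loci), and the bar for all loci (645 raised) includes LTR12 and HERV9.

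More calls fell among tested L2 loci with high mean CPM, a split that was not made for other repeats. The mean includes the U7 ASO libraries, so a rise itself moves a locus up in this order. Among the 615 tested L2 loci with the lowest mean CPM (3.26 to 7.13 CPM) 8 loci were raised and 1 lowered, and among the 615 with the highest (15.4 to 1158 CPM) 21 were raised and 14 lowered. In the sets between them, in rising order, 7 and 14 were raised and 1 and 3 lowered. The median log2 fold change was −0.022 in the lowest set and −0.12 in the highest. Just inside the threshold were L2a_dup1336_1897266 (0, 1 and 4 control reads, 20, 40 and 30 U7 ASO reads, adjusted p = 0.0495) and L2a_dup298_11243 (adjusted p = 0.0481). Just outside were L2_dup949_5044158 (0 control reads, 17, 12 and 28 U7 ASO reads, adjusted p = 0.0506) and L2_dup3269_1840649 (90, 124 and 150 reads against 243, 314 and 296, adjusted p = 0.0539).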

How the data were processed

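For each library the deposited file lists raw read counts by repeat locus, without a header. STAR 2.5.3a, featureCounts 1.5.0-p1 from Subread, FastQC 0.11.5 and build GRCh38 are named, per the submitters' processing notes. Not given in the sources used here were the repeat annotation, the strand setting and the treatment of reads with several matches. Counts above 0 were even in 73.3% to 79.0% of cases, so a count may hold both mates. Without a stated strand setting, an L2 locus and a transcript crossing it on the other strand cannot be told apart.

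All 433837 loci, and counts summed over each of 5230 repeat names, entered the count filter (filterByExpr with minimum count 10 and minimum total 15). The 14380 loci and 2236 names that passed it were fitted with edgeR 4.0.16 in R 4.3.3 (TMM, glmQLFit and glmQLFTest, two-sided, no covariate). P-values were Benjamini-Hochberg adjusted over all features tested and called under 0.05. Locus CPM are scaled to the reads in tested loci, and windows of running numbers used all listed loci. The code was tested on simulated counts. Named loci were the 10 largest rises, the 10 largest falls and the 10 highest mean CPM among L2 loci, with others chosen after their values were seen. The members and lists were chosen with earlier results of these data known. Alternatives were DESeq2 1.42.0, limma-voom (limma 3.58.1), other scalings and filters, a fold test, a replicate block and leaving out each library.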

Additional observations from a re-analysis of the deposited data

How the results depend on the processing

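All 4 L2 names stayed short of the threshold and below 0 in log2 fold change under every alternative run, and the summed L2 reads kept a log2 ratio from −0.13 to −0.073, the last with library totals as the only scaling. The number of raised L2 loci was 68 with DESeq2, 23 with limma-voom, 26 with a minimum count of 30 (468 L2 loci tested) and 19 to 46 when 1 library was left out, lowest without U7 ASO replicate 1 (19) and replicate 3 (21). The number of lowered L2 loci was 39 with DESeq2 1.42.0, 9 without a count filter, 10 against a fold of 1.5 and 4 to 8 when 1 library was left out, whichever it was. Leaving out 1 library also changed the filter, which then tested between 3748 and 3987 L2 loci. All 50 raised and all 19 lowered loci were also called by DESeq2. In all, 13 raised and 3 lowered calls passed in each alternative that tested them. Of the 13 raised loci, only L2a_dup784_4144325, L2b_dup32_4439967 and L2c_dup1352_5293588 met the count minimum in every control library. The others, loci with 0 control reads included, could reach the test only with the U7 ASO side, so their stable calls are not given as support. L2a_dup1613_1906439 passed without a count filter and with limma-voom, and L2c_dup5442_3449082 with DESeq2. The median log2 fold change of tested L2 loci was −0.045 with DESeq2, −0.11 with limma-voom, −0.044 with median-ratio factors, −0.22 with upper-quartile factors (which moved the median of all loci by −0.15), −0.12 with library totals, −0.11 with the replicate block and −0.068 to −0.038 when 1 library was left out. Without a count filter it was 0.71, where the median of all loci was 1.52. The cause of these shifts was not tested. For 4 loci with many reads that did not pass, the log2 fold change reversed sign in places when 1 library was left out, ranging from −0.44 to 0.022 for L2b_dup2380_574801, from −0.40 to 0.053 for L2a_dup49_3458126, from −0.32 to 0.0060 for L2c_dup2222_1650538 and from −0.62 to 0.10 for L2a_dup3828_3559323, with each highest value without U7 ASO replicate 3. With the replicate block 43 L2 loci were raised and 18 lowered. Same-numbered libraries of the 2 groups had correlations of deviations of 0.065, −0.0341 and 0.0361 over loci, and not every library correlated best with its own number, so the numbers were not taken to pair the libraries. In windows of 20, 100 and 500 running numbers, the wider ones and the next setting chosen after seeing the data, 18, 23 and 26 raised L2 loci had a raised LTR12 or HERV9 locus, and without LTR12 and HERV9 loci in the window 42 in place of 44 raised loci had higher window reads. Loci that did not reach about 10 reads in at least 3 libraries were not tested, so changes there were not detectable at this depth.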
